A study of Mus musculus with 28 samples.

Results

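The type I interferon-stimulated genes described here are antiviral effectors and nucleic acid sensors whose transcription interferon raises. Chemokines, interferon-induced GTPases, Schlafen genes and the interferon regulatory and STAT transcription factors were kept out of the list by its definition. Of the 40 names listed, 39 were found among the 25301 genes of the deposited table, all of them protein-coding. All 39 lay above 1 FPKM in every library, the lowest value being 1.56 FPKM (Ifi44, NC library 3), so all were among the 11960 genes tested. FPKM count fragments corrected for transcript length and library size, so levels of different genes can be set side by side. The genes were grouped by role into 7 sensors of RNA or DNA, 12 proteins that bind RNA, cleave it or stop its translation, 4 membrane and nucleotide effectors, 8 genes of ISG15, ubiquitin or ADP-ribose transfer, and 8 others.

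RNA was sequenced from pancreatic macrophages, sorted by flow cytometry, of C57BL/6J mice of wild-type genotype given caerulein, a peptide that provokes acute pancreatitis (AP) by overstimulating the acinar cells. The groups were NC (3 libraries), D0 of the pancreatitis model (5), D1 AP+Lac and D1 AP+PBS (6 each), and D3 AP+Lac and D3 AP+PBS (4 each). They are called NC, day 0, day 1 lactate, day 1 PBS, day 3 lactate and day 3 PBS below. What NC stands for, and whether it received caerulein, is not given in the labels, nor are the age of the mice and the dose and route of lactate or PBS. Whether each library is a separate animal is not stated either, so p-values measure the spread between these libraries, which may be technical. Depth recovered from the FPKM steps was 33273303 to 41060490 fragments per library. A member had between 138 fragments (Ifit3b, day 1 PBS library 1) and 75370 fragments (Ifit2, day 1 lactate library 5) in a library.

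Type I interferons bind the receptor IFNAR, whose kinases JAK1 and TYK2 set off assembly of the transcription factor complex ISGF3, which binds the interferon-stimulated response element (ISRE) in promoters of genes such as those described here. Their products act at many steps of a viral life cycle: MDA5 (Ifih1) senses double-stranded RNA, oligoadenylate synthetases switch on RNase L, IFIT proteins hold back foreign RNA, viperin (Rsad2) makes a chain-terminating nucleotide, and tetherin (Bst2) retains budding particles. Macrophages are a textbook responder to interferon, and the same genes are also induced in sterile tissue injury.

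Promoters are shown for Isg15, the 4 Ifit genes and Rsad2, whose changes with lactate at day 1 are among the largest below, and for Trim25, whose values differed least between day 1 PBS libraries. Each sequence is the 250 bases before the annotated start of transcription, 5′ to 3′ on the gene's own strand, from RefSeq on GRCm38.p6. Capitals mark matches to the ISRE core GAAANNGAAA on either strand. Isg15 is on the minus strand at chr4:156200819-156201068, and Rsad2 on the minus strand at chr12:26456453-26456702. The others are on the plus strand, Ifit1 at chr19:34640639-34640888, Ifit2 with 2 annotated starts at chr19:34550444-34550693 and chr19:34550838-34551087, Ifit3 at chr19:34583279-34583528, Ifit3b at chr19:34607707-34607956 and Trim25 at chr11:88999153-88999402.
Isg15: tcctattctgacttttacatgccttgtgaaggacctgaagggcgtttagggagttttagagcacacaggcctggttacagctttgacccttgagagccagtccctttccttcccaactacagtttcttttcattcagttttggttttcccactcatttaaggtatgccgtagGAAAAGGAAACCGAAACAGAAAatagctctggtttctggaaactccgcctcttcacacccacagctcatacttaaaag
Ifit1: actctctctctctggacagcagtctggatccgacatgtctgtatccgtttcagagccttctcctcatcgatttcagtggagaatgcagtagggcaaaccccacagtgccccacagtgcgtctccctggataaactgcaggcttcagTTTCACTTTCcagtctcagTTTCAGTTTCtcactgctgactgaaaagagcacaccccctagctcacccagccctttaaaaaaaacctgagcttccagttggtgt
Ifit2 (upstream start): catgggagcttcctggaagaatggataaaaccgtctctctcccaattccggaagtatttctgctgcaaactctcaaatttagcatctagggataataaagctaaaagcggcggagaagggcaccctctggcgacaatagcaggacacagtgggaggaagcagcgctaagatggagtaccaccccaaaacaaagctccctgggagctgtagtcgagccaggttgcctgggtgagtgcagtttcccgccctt
Ifit2 (downstream start): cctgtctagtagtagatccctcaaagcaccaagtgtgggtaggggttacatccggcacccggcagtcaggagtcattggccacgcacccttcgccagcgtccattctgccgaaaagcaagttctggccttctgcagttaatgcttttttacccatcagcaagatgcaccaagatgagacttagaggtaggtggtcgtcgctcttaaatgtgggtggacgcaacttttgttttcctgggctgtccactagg
Ifit3: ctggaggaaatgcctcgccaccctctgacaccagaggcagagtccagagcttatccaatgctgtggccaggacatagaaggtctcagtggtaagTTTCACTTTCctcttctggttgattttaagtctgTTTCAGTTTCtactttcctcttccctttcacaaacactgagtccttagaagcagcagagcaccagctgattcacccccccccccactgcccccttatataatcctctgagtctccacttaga
Ifit3b: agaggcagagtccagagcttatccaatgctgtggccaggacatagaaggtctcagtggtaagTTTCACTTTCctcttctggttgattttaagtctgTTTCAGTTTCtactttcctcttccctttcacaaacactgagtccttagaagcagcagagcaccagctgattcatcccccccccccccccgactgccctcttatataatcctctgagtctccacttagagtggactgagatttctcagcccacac
Rsad2: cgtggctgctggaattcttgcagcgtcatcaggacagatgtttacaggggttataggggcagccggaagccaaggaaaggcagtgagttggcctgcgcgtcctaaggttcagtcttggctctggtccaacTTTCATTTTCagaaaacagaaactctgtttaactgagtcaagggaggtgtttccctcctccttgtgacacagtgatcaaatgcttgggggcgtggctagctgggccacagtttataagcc
Trim25: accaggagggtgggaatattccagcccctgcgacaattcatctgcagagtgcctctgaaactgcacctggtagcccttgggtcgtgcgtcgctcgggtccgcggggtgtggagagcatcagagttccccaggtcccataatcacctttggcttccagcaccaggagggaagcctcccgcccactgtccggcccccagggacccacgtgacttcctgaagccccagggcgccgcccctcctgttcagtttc
Isg15 held 3 overlapping matches that began 78, 72 and 66 bases before the start. Ifit1 held 2 matches (104 and 85 bases before the start), and Rsad2 held 1 (120 bases before it). The matches of Ifit3 began 156 and 122 bases before its start and those of Ifit3b 188 and 154 bases before its own. Windows of 250 bases before to 50 bases after the start, with Ifit3b shifted by 32 bases, were identical at 201 of 268 bases (75.0%). Gaps were not allowed, so an insertion or deletion lowers this share. No match to these letters was present in the window of Trim25 or in either window of Ifit2.

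Windows of 250 bases before to 50 bases after the start were found for 30 of the 39 members, some with more than 1 start. The ISRE core was present in 16 of the 30 (53.3%), against 1079 of 27025 genes with a window (3.99%). The GAS core TTCNNNGAA, an element of genes that respond to interferon gamma, was present in 7 of 30 (23.3%) against 9.55% of genes with a window, and TATAAA in 4 of 30 (13.3%) against 15.7%, both searched on both strands. Genes with a window include many that were not tested here. Among 9481 other tested genes with a window the shares were 4.02% for the ISRE core, 8.40% for the GAS core and 9.16% for TATAAA. Of 28 ISRE matches in the members, 2 overlapped a GAS match. A match describes these letters only and does not show a bound site.

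The libraries were checked against marker genes before the members were compared. The 8 macrophage markers (Adgre1, Csf1r, Cd68, Fcgr1, Mertk, Cd14, Aif1 and Lyz2) summed to 6067 to 16855 FPKM in a library, and none was at 0 in any group. Markers of other cells were present too. Acinar markers summed to 335 to 634 FPKM in day 0 libraries and 5463 to 8923 FPKM in NC libraries, and monocyte markers to 4026 to 5359.7 FPKM in day 0 libraries and 539 to 887 FPKM in NC libraries. In bulk RNA, fewer cells of a type and less RNA per cell cannot be told apart. Libraries numbered 5 and 6 stood apart in both day 1 groups: the mean log2(FPKM + 1) of the fibroblast and stellate markers was 1.67 to 1.85 in lactate 5 and 6 and 1.60 to 1.73 in PBS 5 and 6, against 2.92 to 4.21 in lactate 1 to 4 and 3.10 to 3.88 in PBS 1 to 4. B and plasma cell markers showed the same division, with 4.34 to 4.42 in lactate 5 and 6 and 4.41 to 5.11 in PBS 5 and 6, against 6.10 to 7.09 in lactate 1 to 4 and 5.79 to 6.93 in PBS 1 to 4. The labels give no reason for it. For each comparison with day 1 PBS the count of members is given with and without these PBS libraries, and other day 1 values include all 6 libraries unless stated.

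**Figure D1:**
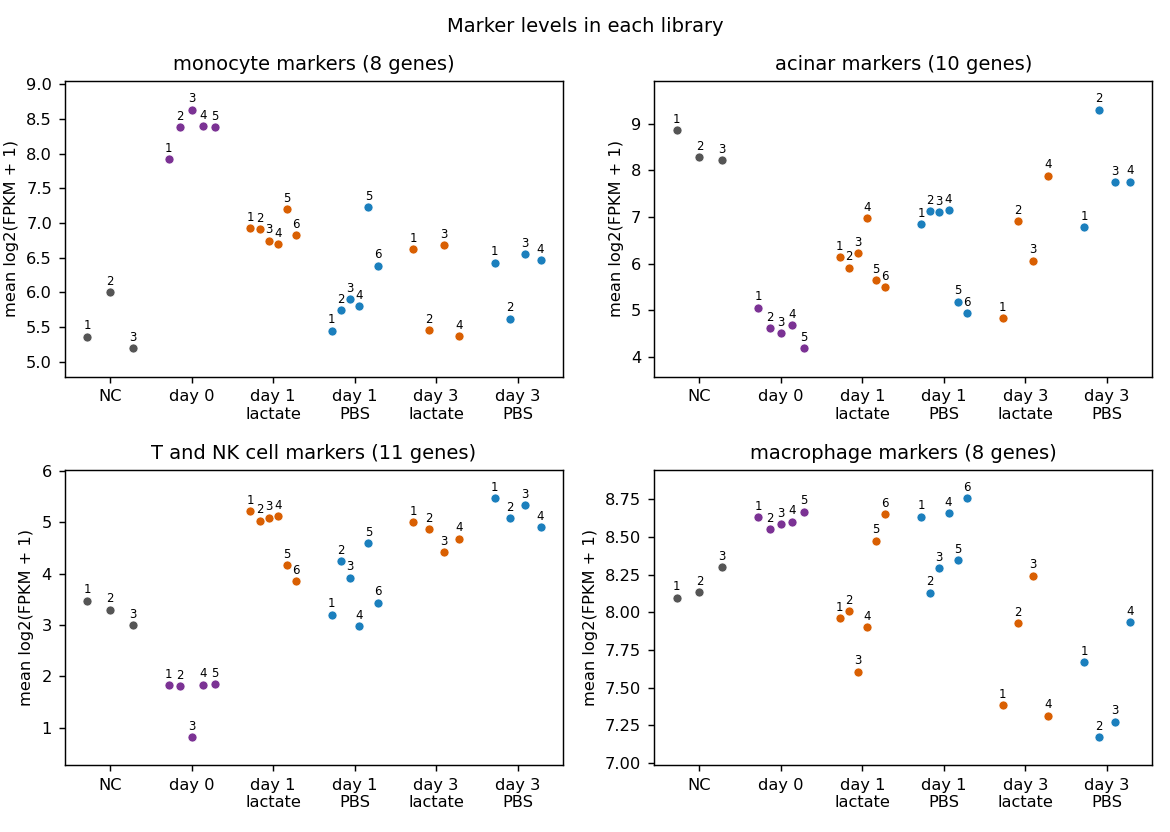
Mean log2(FPKM + 1) of marker lists in each library (points, numbered as in the labels), for NC, day 0, day 1 lactate, day 1 PBS, day 3 lactate and day 3 PBS from left to right. Monocyte markers are high and acinar markers low in the day 0 libraries. In the acinar markers, numbers 5 and 6 lie below numbers 1 to 4 in both day 1 groups. The monocyte, T and NK and macrophage markers do not show such a division in both groups.

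The members moved together. The mean log2(FPKM + 1) over all 39 was 4.57 ± 0.19 in NC (SD, n = 3), 6.11 ± 0.48 at day 0 (n = 5), 6.57 ± 0.66 with lactate at day 1 (n = 6) and 5.07 ± 1.08 with PBS at day 1 (n = 6). At day 3 it was 4.93 ± 0.71 with lactate and 6.18 ± 0.51 with PBS (SD, n = 4 each). The spread of day 1 PBS came from a division: libraries 1 to 4 had 4.22, 4.41, 4.65 and 4.41, while library 5 had 6.95 and library 6 had 5.79. Lactate library 5 was also the highest of its group at 7.55, while lactate library 6 had 6.71, within the 5.61 to 6.76 of lactate libraries 1 to 4. In 4 of the 6 groups 1 library was highest for nearly all members, namely day 0 library 3 for 36 of 39, day 1 lactate 5 for 37, day 1 PBS 5 for 37 and day 3 lactate 3 for 38. In day 3 PBS library 1 was highest for 26 and library 4 for 13, and in NC libraries 1 and 2 were each highest for 19.

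**Figure D2:**
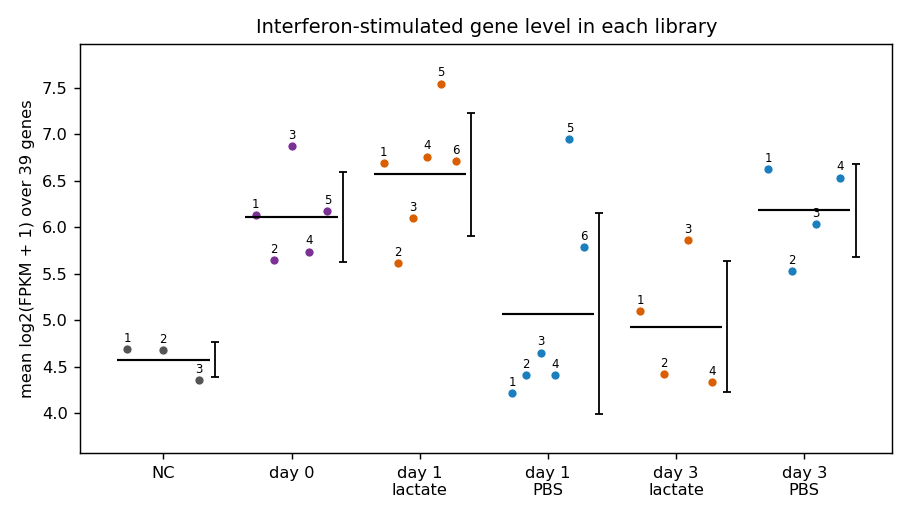
Mean log2(FPKM + 1) of the 39 members in each library (points, numbered as in the labels), for NC, day 0, day 1 lactate, day 1 PBS, day 3 lactate and day 3 PBS. Day 1 PBS libraries 1 to 4 lie between 4.22 and 4.65, close to the NC libraries (4.36 to 4.69), and libraries 5 and 6 lie at 6.95 and 5.79.

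The ratio of the highest to the lowest library of a group, taken gene by gene, had a median over the members of 1.38 in NC and 2.20 at day 0. It was 3.38 with lactate and 6.32 with PBS at day 1, and 3.11 with lactate and 2.23 with PBS at day 3. In day 1 PBS it ran from 1.29 for Trim25, a ubiquitin ligase of the RIG-I pathway, to 42.8 for Ifit3b, a close copy of Ifit3. After group means were taken away, a member's log2 values correlated with the mean of the other members at a median r of 0.96 over 28 libraries, which share preparation and depth. Trim25 had the lowest r at 0.59, and Ifitm3, which blocks viral entry from endosomes, had 0.77.

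**Figure D3:**
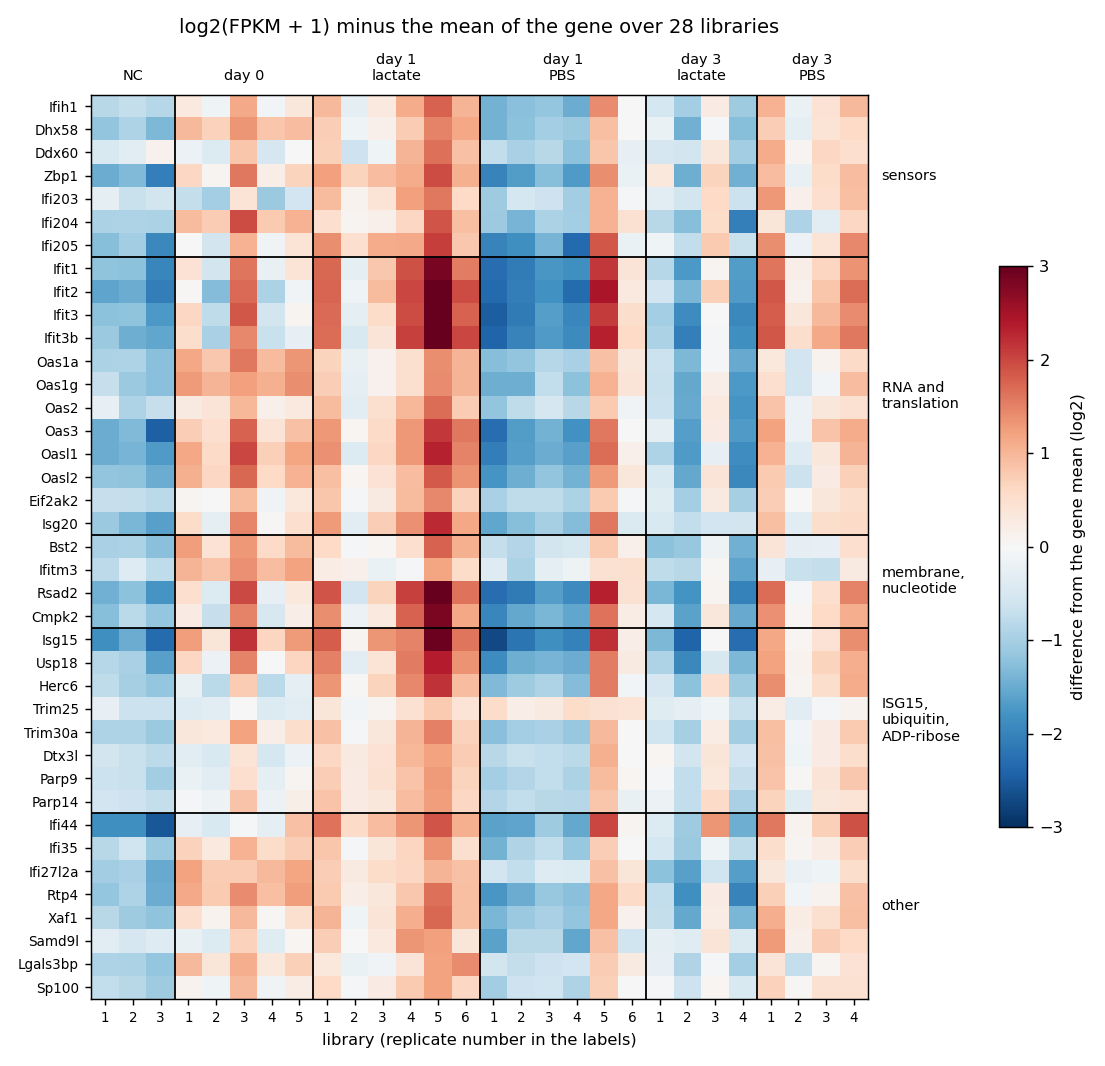
Deviation of each member's log2(FPKM + 1) from its own mean over the 28 libraries (colour), with libraries in columns by group and members in rows by role. Day 0, day 1 lactate, day 1 PBS libraries 5 and 6 and day 3 PBS are high for most members, and Trim25 does not follow that pattern.

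The first question was how the module stood at day 0 of the pancreatitis model relative to NC. It was higher at day 0: 25 of 39 members rose and 0 fell in limma (29 higher and 0 lower at an unadjusted p under 0.05), against 19.7% of all genes tested that rose and 41.4% that fell. The median member log2 fold change was 1.64, while the median over all genes was -0.22. Among the 12 RNA-binding, cleaving and translation genes 9 rose, among the sensors 4 of 7, among the membrane and nucleotide genes 2 of 4, among the ISG15, ubiquitin and ADP-ribose genes 3 of 8, and among the others 7 of 8. For 34 members the lowest day 0 library lay above the highest NC library, which held for 21.7% of all genes.

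Isg15, a ubiquitin-like protein that is attached to other proteins, had the largest change. It had 341, 183, 647, 224 and 343 FPKM in the 5 day 0 libraries, against 39.1, 49.96 and 27.9 FPKM in the 3 NC libraries. Every day 0 value was thus well above every NC value, and the log2 fold change was 3.02 ± 0.79 (SE, limma adjusted p = 0.0021).
Oasl1, an oligoadenylate synthetase-like protein that in mice restrains IRF7 translation, had 80.8, 53.8, 145, 59.04 and 81.9 FPKM at day 0 and 12.1, 12.8 and 10.2 FPKM in NC (log2 fold change 2.66 ± 0.64, limma adjusted p = 0.001). Oas3, which makes the second messenger of RNase L, had 69.4, 58.9, 141, 54.9 and 76.2 FPKM at day 0 and 13.9, 15.8 and 6.73 FPKM in NC (2.61 ± 0.64, limma adjusted p = 0.0012). Oasl2, of the same family, had 180.5, 132, 289, 131 and 179 FPKM at day 0 and 37.5, 36.6 and 29.9 FPKM in NC (2.31 ± 0.57, limma adjusted p = 0.0012). In all 3 the groups were fully separated, and day 0 library 3 was the highest.
The surface proteins were abundant. Bst2 had 665, 379.7, 689, 414 and 536 FPKM at day 0, against 141, 143 and 117 FPKM in NC (1.96 ± 0.37, limma adjusted p = 8.8e-05). Ifitm3 had the highest level of all members, with 2153, 1910.4, 2726, 2021 and 2421 FPKM at day 0 and 613, 803 and 617 FPKM in NC (1.73 ± 0.33, limma adjusted p = 9.4e-05). Neither overlapped between the groups.
Ifit1, which binds RNA with an incompletely methylated cap, had 36.9, 18.1, 84.3, 22.95 and 35.7 FPKM at day 0 and 10.97, 10.9 and 6.15 FPKM in NC (1.81 ± 0.77, limma adjusted p = 0.045). Rsad2 had 43.9, 22.7, 122, 25.4 and 38.00 FPKM at day 0 and 10.6, 12.5 and 8.27 FPKM in NC (1.90 ± 0.86), and its limma adjusted p of 0.058 missed the threshold although the groups did not overlap. The other 13 members without a call had log2 fold changes of -0.10 (Ifi203, a protein of the DNA-binding HIN family) to 1.64 (Ifit3). Among these were Trim25 (0.22), the helicase gene Ddx60 (0.16), Samd9l (0.37), an antiviral factor, and the ADP-ribose transfer partners Dtx3l (0.46) and Parp9 (0.75).

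**Figure D4:**
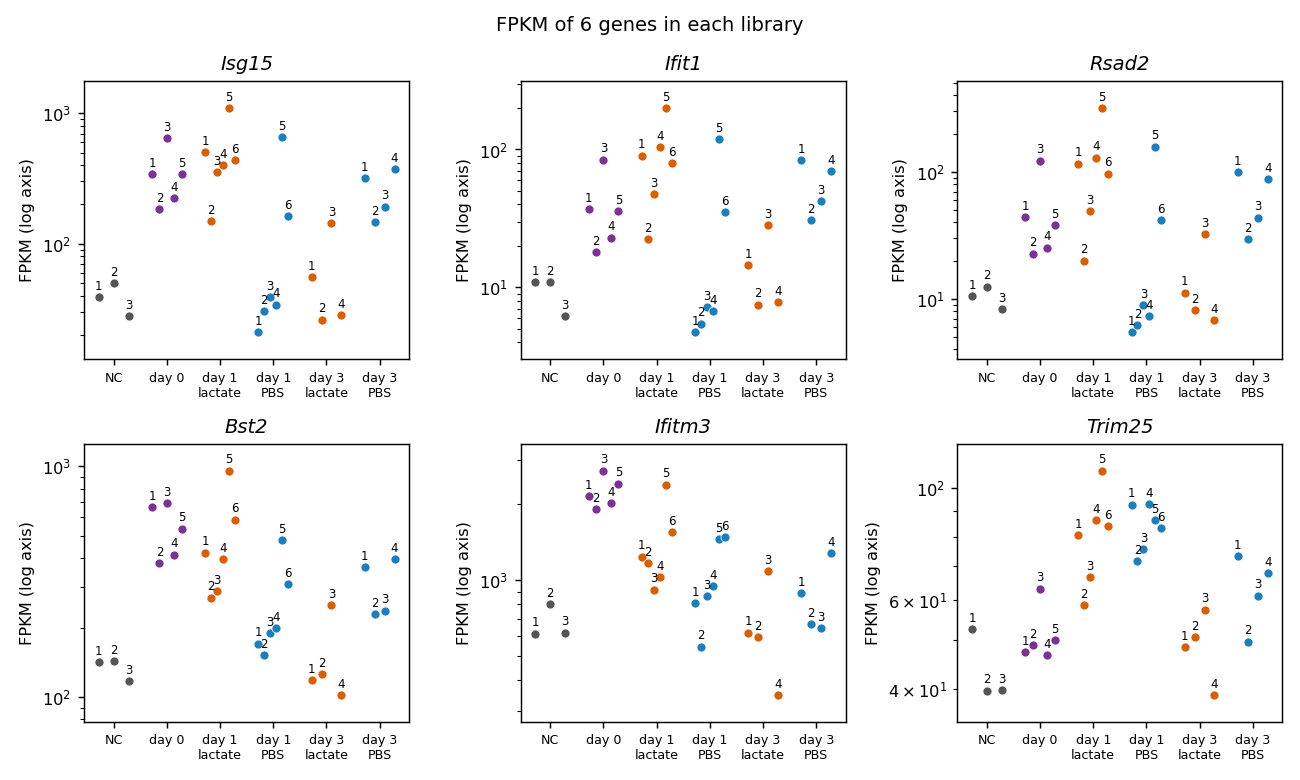
FPKM (log axis) of Isg15, Ifit1, Rsad2, Bst2, Ifitm3 and Trim25 in each library (points, numbered as in the labels), for NC, day 0, day 1 lactate, day 1 PBS, day 3 lactate and day 3 PBS. In the first 4 genes the day 0, day 1 lactate and day 3 PBS libraries lie above NC and above day 1 PBS libraries 1 to 4, while Trim25 has its highest group means at day 1.

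Cell markers moved with this comparison: all 8 tested monocyte markers rose at day 0, while 9 of 9 acinar, 9 of 9 conventional dendritic, 10 of 11 T and NK and 7 of 7 B and plasma cell markers fell. Their part in the result was not tested beyond 3 covariates. With the mean of the acinar markers as a covariate 0 members were called by limma (1 higher and 3 lower at an unadjusted p under 0.05, median -0.47), against 10.8% of all genes higher and 16% lower. With the dendritic covariate 0 members were called by limma, adjusted or not (median -0.045), against 11% of all genes higher and 7.98% lower, and with the lymphocyte covariate 1 was (median 0.31), against 23.1% and 19.9%; the groups did not overlap in these marker means, so content and day cannot be told apart.

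With PBS, the module was lower at day 1 than at day 0. Of the 39 members 22 fell and 1 rose, against 19.8% of all genes that fell and 43% that rose, and the median member log2 fold change was -1.12 (0.19 over all genes). By role, 8 of 12 RNA-binding and translation genes fell, 3 of 7 sensors, 2 of 4 membrane and nucleotide genes, 3 of 8 ISG15, ubiquitin and ADP-ribose genes and 6 of 8 others. Day 0 is shared with the comparison above.

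Isg15 ran from 20.9 to 656 FPKM (median 36.5) in the 6 day 1 PBS libraries, against 341, 183, 647, 224 and 343 FPKM at day 0 (-2.21 ± 0.66, limma adjusted p = 0.0054). Library 5 with 656 FPKM exceeded all day 0 libraries, library 6 had 164 FPKM, and libraries 1 to 4 stayed at or below 38.95 FPKM. The 2 groups therefore overlapped through library 5.
Oas1g, an oligoadenylate synthetase, ran from 8.04 to 50.8 FPKM (median 11.9) in day 1 PBS libraries, against 59.9, 50.2, 57.9, 51.2 and 65.2 FPKM at day 0 (-1.78 ± 0.41, limma adjusted p = 0.00064), and its high library was again number 5. Oasl1 ran from 7.74 to 116 FPKM (median 11.4) in day 1 PBS libraries (-1.97 ± 0.53, limma adjusted p = 0.0026) and Oas3 from 7.58 to 124 FPKM (median 13.4) (-1.80 ± 0.53, limma adjusted p = 0.0052), to be set against their day 0 values above. Bst2 ran from 152 to 479 FPKM (median 194) in day 1 PBS libraries (-1.19 ± 0.31, limma adjusted p = 0.002).
Ifitm3 was the only member whose day 1 PBS libraries all lay below its day 0 libraries, which held for 12.5% of all genes. It ran from 544 to 1477 FPKM (median 903) in day 1 PBS, against 1910.4 to 2726 FPKM at day 0 (-1.22 ± 0.27, limma adjusted p = 0.00051).
Trim25 went the other way. It ran from 71.7 to 92.8 FPKM (median 84.8) in day 1 PBS libraries, against 47.4, 48.9, 63.2, 46.8 and 50.01 FPKM at day 0, with no overlap (0.70 ± 0.13, limma adjusted p = 9.5e-05); higher values without overlap held for 31.7% of all genes. The 4 Ifit genes, Rsad2 and Cmpk2, the mitochondrial nucleotide kinase encoded beside Rsad2 on chromosome 12, had log2 fold changes of -1.29 to -0.84 and missed the threshold. Of these, Ifit1 ran from 4.73 to 119.6 FPKM (median 6.98) and Rsad2 from 5.48 to 158 FPKM (median 8.14) in day 1 PBS libraries.

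Without day 1 PBS libraries 5 and 6, 37 members fell and 1 rose relative to day 0 (19.6% of all genes fell), the median was -1.71 and Isg15 had -3.34 (limma adjusted p = 3.4e-06). For 37 members libraries 1 to 4 of day 1 PBS then lay wholly below day 0, which held for 17.8% of all genes. The members were high in libraries 5 and 6, so leaving these out partly set this separation in advance. Monocyte markers moved along, with 8 of 8 lower at day 1, while 11 of 11 T and NK and 7 of 7 B and plasma cell markers were higher. With all libraries and the acinar, lymphocyte and dendritic covariates 3, 1 and 1 members were called, against 29.8%, 15.6% and 8.43% of all genes higher and 16.5%, 23.5% and 12.4% lower, and the part of cell content was not tested further.

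Relative to NC, day 1 PBS libraries had 2 members higher and 0 lower (5 higher and 0 lower at an unadjusted p under 0.05), against 5.29% and 9.18% of all genes. The median member log2 fold change was 0.48. Without libraries 5 and 6 it was -0.18, with 1 member higher and 0 lower, against 6.27% and 8.73% of all genes. The called members were Trim25 (0.92 ± 0.16, limma adjusted p = 0.00016), which had 52.5, 39.8 and 39.9 FPKM in NC, and Ifi27l2a, a small interferon-induced membrane protein. Ifi27l2a ran from 291 to 904 FPKM (median 369.5) in day 1 PBS, against 238, 250.04 and 171 FPKM in NC (1.02 ± 0.28, limma adjusted p = 0.014). Both were higher in each of the 6 day 1 PBS libraries than in any NC library, as were Bst2, Ifi44 and the secreted glycoprotein gene Lgals3bp (5 members, against 8.13% of all genes). Libraries 1 to 4 of day 1 PBS lay below all NC libraries for 7 members, among them Ifih1, Ddx60, Ifit3b, Cmpk2 and Samd9l (16.5% of all genes).

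At day 3 with PBS the module stood high again. Relative to day 1 PBS 22 members rose and 1 fell, against 21.5% of all genes that rose and 12.8% that fell, and the median member log2 fold change was 1.08 (0.10 over all genes). The sensors had the largest share, with 6 of 7 higher, followed by 5 of 8 ISG15, ubiquitin and ADP-ribose genes, 5 of 8 others and 6 of 12 RNA-binding and translation genes. Among the 4 membrane and nucleotide genes 0 were called by limma, with log2 fold changes of -0.20 (Ifitm3) to 1.77 (Rsad2, adjusted p = 0.072).

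The Ifit genes led. Ifit3b had 48.5, 18.4, 28.9 and 39.4 FPKM in day 3 PBS libraries, against 1.57 to 67.2 FPKM (median 2.87) in day 1 PBS libraries (2.12 ± 0.75, limma adjusted p = 0.032). Ifit2 had 152, 45.6, 74.6 and 133 FPKM at day 3, against 7.39 to 230.1 FPKM (median 10.1) at day 1 (2.09 ± 0.78, limma adjusted p = 0.041). In both, day 1 PBS library 5 exceeded all day 3 PBS libraries, and libraries 1 to 4 lay below all of them. Ifit3 had 177, 63.1, 97.9 and 135 FPKM at day 3, against 8.18 to 217 FPKM (median 13.5) at day 1 (2.07 ± 0.73, limma adjusted p = 0.031), and Ifit1 had 83.6, 30.8, 42.3 and 69.5 FPKM at day 3 (1.86 ± 0.68, limma adjusted p = 0.037). Ifit3 and Ifit3b are near-identical copies whose fragments may have been divided between them by counting, so they are not separate evidence. Isg15 had 319, 147, 193 and 375 FPKM at day 3 (1.82 ± 0.70, limma adjusted p = 0.045) and Rsad2 had 99.4, 29.5, 43.6 and 87.1 FPKM.
Trim25 fell. It had 73.4, 49.7, 61.3 and 67.9 FPKM in day 3 PBS libraries, overlapping the day 1 PBS range given above (-0.41 ± 0.14, limma adjusted p = 0.029, and 0.059 without day 1 PBS libraries 5 and 6).

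With all 6 day 1 PBS libraries the groups overlapped for each of the 39 members (8.31% of all genes were higher without overlap). Set against libraries 1 to 4, 36 members were higher in every day 3 PBS library (17.8% of all genes). The choice of libraries 1 to 4, in which the members were low, partly set this separation in advance. Without libraries 5 and 6 in the fit 34 members rose and 0 fell (21% of all genes rose), with a median of 1.70, and Ifit3b had 3.28 and Isg15 2.95. By role 6 of 7 sensors, all 12 RNA-binding and translation genes and 2 of 4 membrane and nucleotide genes then rose. The count depended on single libraries: it was 3 without day 1 PBS 4 or day 3 PBS 1, 4 without day 1 PBS 1 or day 3 PBS 4, 8 without day 3 PBS 3, and 10 without day 1 PBS 2 or 3. It was also 3 when only these 2 groups were fitted (23 higher and 1 lower at an unadjusted p under 0.05). T and NK markers (10 of 11) and conventional dendritic markers (9 of 9) rose with it, and 6 of 8 macrophage markers fell; their part was not tested beyond covariates, of which the dendritic one left 0 members called by limma (34 higher at an unadjusted p under 0.05, 0% of all genes called) and the acinar one 36 (14.7% of all genes higher and 12% lower). Median-ratio scaling gave 5 called members and no filter on low values 8.

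Relative to NC, 27 members were higher in day 3 PBS libraries and 0 lower (36 higher and 0 lower at an unadjusted p under 0.05), against 10.3% of all genes higher and 10.9% lower, with a median of 1.46. Ifi44, an interferon-induced cytoplasmic protein, had 43.9, 14.98, 23.3 and 55.4 FPKM in day 3 PBS and 3.14, 3.18 and 1.56 FPKM in NC (3.15 ± 0.67, limma adjusted p = 0.0016). Every day 3 PBS value was higher than every NC value. Ifit2 had 13.2, 13.97 and 9.08 FPKM in NC (2.84 ± 0.93, limma adjusted p = 0.032), Ifit3b had 5.28, 3.91 and 3.58 FPKM in NC (2.66 ± 0.89, limma adjusted p = 0.036), and Isg15 had 2.64 ± 0.83 (limma adjusted p = 0.025). For 35 members all day 3 PBS libraries lay above all NC libraries, which held for 22% of all genes. Ifitm3, Trim25, Ddx60 and Ifi204 were the 4 that overlapped. The count fell to 3 without NC library 3, to 9 without day 3 PBS 1, and to 11 or 12 without NC 1, NC 2 or day 3 PBS 4. It was 14 with median-ratio scaling and 13 with no filter on low values. Cell markers moved in this comparison too, with 25 of 81 higher and 9 lower. Among them 10 of 11 T and NK and 5 of 9 conventional dendritic markers were higher, and 5 of 8 macrophage markers lower. Their part was not tested beyond the covariates.

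Day 3 PBS and day 0, the pair of groups without lactate in which most members were high, were compared after their values had been seen. At day 3 PBS 1 member was higher and 5 were lower than at day 0, against 48% of all genes higher and 19.8% lower, and the median member log2 fold change was 0.16 (0.27 over all genes). Ifitm3 had 886, 667, 643 and 1281 FPKM in day 3 PBS libraries, all below day 0 (-1.41 ± 0.30, limma adjusted p = 0.00024). The DNA-binding gene Ifi204 (-1.17 ± 0.49, limma adjusted p = 0.037) had 173, 69.4, 104 and 207 FPKM in day 3 PBS and 260.2, 226, 517, 232 and 277 FPKM at day 0. Oas1a (-1.06 ± 0.39, limma adjusted p = 0.019) had 97.2, 52.6, 84.99 and 117 FPKM in day 3 PBS and 178, 138, 237, 153 and 196 FPKM at day 0. Ifi27l2a (-0.85) and Bst2 (-0.81) fell as well, while Ifi203 was higher with 124, 55.1, 71.2 and 93.6 FPKM in day 3 PBS and 29.95, 24.1, 66.3, 22.5 and 33.2 FPKM at day 0 (1.31 ± 0.38, limma adjusted p = 0.0037). Ifi203 and Ifi204 belong to one family of similar sequence, and fragments shared between such copies cannot be assigned with certainty. The count was 16 (7 higher and 9 lower) when only these groups were fitted, so members without a call are not shown to be at the same level.

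The main question of the series was what lactate did. At day 1 the module was higher with lactate than with PBS: 34 of 39 members rose and 0 fell in limma (37 higher and 0 lower at an unadjusted p under 0.05), against 5.16% of all genes that rose and 4.56% that fell. The median member log2 fold change was 1.40, with 0.02 over all genes. All role groups took part, with 6 of 7 sensors, 11 of 12 RNA-binding and translation genes, 3 of 4 membrane and nucleotide genes, 7 of 8 ISG15, ubiquitin and ADP-ribose genes and 7 of 8 others called. The 5 members without a call were Trim25 (-0.072, 95% interval -0.34 to 0.19), Ifitm3 (0.45, -0.085 to 0.99), Lgals3bp (0.75, 0.15 to 1.34), Ifi204 (1.18, 0.32 to 2.05) and Oas1g (1.16, 0.36 to 1.97).

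Ifit2, an RNA-binding protein of the same family as Ifit1, ran from 37.7 to 461 FPKM (median 152) in the 6 lactate libraries, against 7.39 to 230.1 FPKM (median 10.1) in the 6 PBS libraries (2.62 ± 0.70, limma adjusted p = 0.021). Isg15 ran from 149 to 1099.8 FPKM (median 417) with lactate, against 20.9 to 656 FPKM (median 36.5) with PBS (2.60 ± 0.62, limma adjusted p = 0.014). PBS libraries 5 and 6 fell inside the lactate range for both genes, and PBS libraries 1 to 4 lay below every lactate library.
Ifit3 ran from 40.3 to 429 FPKM (median 168) with lactate, against 8.18 to 217 FPKM (median 13.5) with PBS (2.39 ± 0.65, limma adjusted p = 0.023). Rsad2 ran from 20.03 to 319 FPKM (median 106) with lactate, against 5.48 to 158 FPKM (median 8.14) with PBS (2.37 ± 0.68, limma adjusted p = 0.029), and Ifit1 from 22.3 to 200.1 FPKM (median 85.2) with lactate (2.34 ± 0.61, limma adjusted p = 0.018). In each, lactate library 5 was the highest of all 28 libraries and lactate library 2 the lowest of its group.
Bst2 changed less, with 269.6 to 956 FPKM (median 410.05) under lactate and 152 to 479 FPKM (median 194) under PBS (0.94 ± 0.29, limma adjusted p = 0.042). Ifitm3 ran from 916 to 2399.9 FPKM (median 1204) with lactate, against 544 to 1477 FPKM (median 903) with PBS (0.45 ± 0.26, limma adjusted p = 0.29). The ranges of both genes overlapped between the groups.

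For each of the 39 members at least 1 PBS library reached into the lactate range, while 0.134% of all genes were higher without overlap. When PBS libraries 1 to 4 alone were set against all lactate libraries, 37 members were higher without overlap (6.51% of all genes), the exceptions being Ifitm3 and Trim25. The members were high in PBS libraries 5 and 6, so leaving these out partly set this separation in advance. Between numbers 1 to 4 of both groups 37 members were likewise higher without overlap, against 14.5% of all genes. Without PBS libraries 5 and 6 in the fit 38 members rose and 0 fell (9.68% and 9.37% of all genes) with a median of 1.89, and Isg15 had 3.73 (limma adjusted p = 8.7e-06). The role groups then had all 7 sensors, all 12 RNA-binding and translation genes, all 4 membrane and nucleotide genes, 7 of 8 ISG15, ubiquitin and ADP-ribose genes and all 8 others called. Within numbers 1 to 4 of both groups 37 members rose (16.4% of all genes), with a median of 1.76. Within numbers 5 and 6 of both groups 0 were called by limma (3 higher at an unadjusted p under 0.05, 0% of all genes called) and the median was 0.70. Both lactate libraries 5 and 6 exceeded both PBS libraries 5 and 6 for 7 members (Dhx58, Ddx60, Oas1a, Oasl2, Bst2, Ifitm3 and Lgals3bp), against 7.83% of all genes.

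The count of 34 depended on which libraries were fitted. With only the day 1 libraries in the fit 0 members were called by limma, and 37 were higher at an unadjusted p under 0.05. It was 19 with no filter on low values, 2 without day 1 PBS library 1 or 4 and 22 without day 1 lactate library 1 or 5. Conventional dendritic markers rose with lactate (6 of 9, summing to 222 to 438 FPKM with lactate and 132 to 359 FPKM with PBS), as did 5 of 11 T and NK markers (214 to 662 FPKM with lactate and 104 to 366 FPKM with PBS) and 3 of 8 monocyte markers (1630.1 to 2934 FPKM with lactate and 846 to 2832 FPKM with PBS). In the same comparison 4 of 8 macrophage markers fell (6174 to 12975 FPKM with lactate and 10148 to 16855 FPKM with PBS). With the dendritic covariate 0 members were called by limma (38 higher at an unadjusted p under 0.05, median 1.76), as were 0% of all genes; the part of cell content was not tested further.

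**Figure D5:**
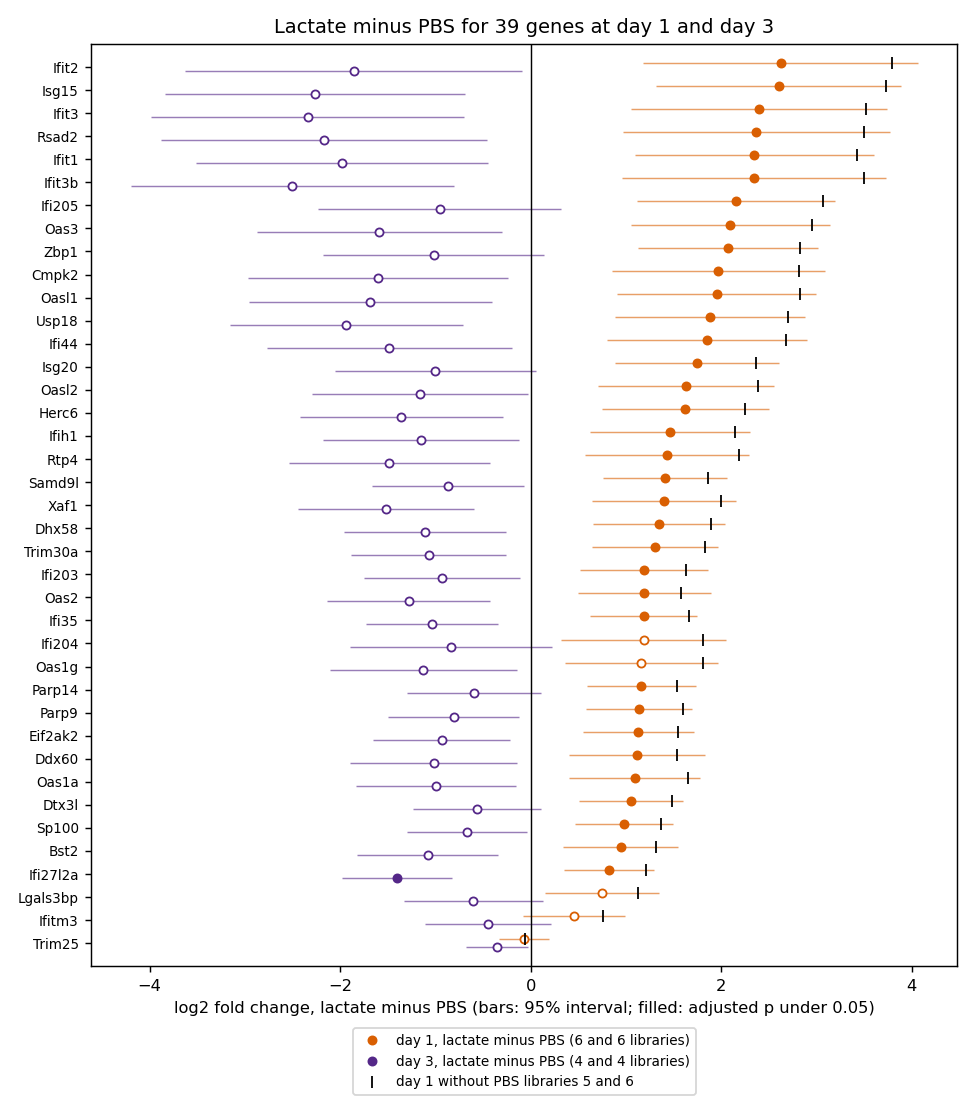
log2 fold change of lactate over PBS for each of the 39 members at day 1 and at day 3 (points, filled where the limma adjusted p was under 0.05), with 95% intervals (bars); ticks give the day 1 value without PBS libraries 5 and 6. All day 3 points lie below 0, and all day 1 points but that of Trim25 lie above 0.

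At day 3 the values lay the other way, and 1 member passed the test. Ifi27l2a fell with lactate (0 members rose), against 0.184% of all genes that fell and 0.192% that rose. It had 208, 157, 321 and 155 FPKM in lactate libraries and 614, 425, 448 and 701 FPKM in PBS libraries, with every lactate library lower (-1.41 ± 0.28, limma adjusted p = 0.026). All 39 members had a negative log2 fold change, 31 of them at an unadjusted p under 0.05, with a median of -1.11 (0.02 over all genes). The shares of all genes just given are for adjusted calls and are no yardstick for these 31.

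Isg15 had 55.2, 26.2, 144 and 28.3 FPKM with lactate, against 319, 147, 193 and 375 FPKM with PBS (-2.26 ± 0.76, limma adjusted p = 0.14). The lactate libraries were all lower, number 3 lying just below PBS library 2. Ifit1 had 14.4, 7.49, 28.4 and 7.77 FPKM with lactate, against 83.6, 30.8, 42.3 and 69.5 FPKM with PBS (-1.98 ± 0.75, limma adjusted p = 0.17), without overlap. Rsad2 had 11.2, 8.17, 32.5 and 6.78 FPKM with lactate, against 99.4, 29.5, 43.6 and 87.1 FPKM with PBS (-2.17 ± 0.83, limma adjusted p = 0.18), and lactate library 3 lay above PBS library 2.
The largest values were those of Ifit3b, 5.999, 2.28, 12.00 and 2.78 FPKM with lactate and 48.5, 18.4, 28.9 and 39.4 FPKM with PBS (-2.50 ± 0.82, limma adjusted p = 0.13), and of Ifit3 (-2.34). Bst2 had 119, 126, 251 and 102 FPKM with lactate and 365, 229.6, 237 and 395 FPKM with PBS (-1.08 ± 0.36), and Ifitm3 had 617, 594, 1088 and 349 FPKM with lactate and 886, 667, 643 and 1281 FPKM with PBS (-0.45 ± 0.32). In both of these lactate library 3 reached into the PBS range. For 8 members, Ifit1, Ifit3, Ifit3b, Isg20, Isg15, Usp18, Ifi35 and Ifi27l2a, the groups did not overlap, which held for 4.33% of all genes.

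The call of Ifi27l2a was lost, and 0 members were called, when any one of day 3 lactate 1, 2 or 4 or day 3 PBS 1, 2 or 4 was left out or when only the day 3 libraries were fitted. With the mean of the acinar markers as a covariate 36 members were called, all lower, with a median of -1.89, against 2.41% of all genes lower and 2.67% higher; acinar markers summed to 490.0 to 4392 FPKM in lactate libraries and 2199.5 to 16314 FPKM in PBS libraries. Of 81 markers of the 10 lists tested, 0 were called at day 3 by limma, and 5 were higher and 17 lower at an unadjusted p under 0.05. Those 17 included 9 of 9 acinar and 4 of 9 conventional dendritic markers, and their part was not tested beyond the covariates.

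The difference between the effects was tested directly. The lactate effect at day 3 was below that at day 1 for all 39 members, and 35 were called lower, against 5.94% of all genes lower and 4.76% higher; the median difference was -2.47. The largest differences were those of Isg15 (-4.87 ± 0.99, limma adjusted p = 0.0061), Ifit3b (-4.84 ± 1.06, 0.0082), Ifit3 (-4.73 ± 1.03, 0.0081) and Rsad2 (-4.54 ± 1.07, 0.011). Ifi204 (-2.02, limma adjusted p = 0.051), Lgals3bp (-1.35, 0.058), Ifitm3 (-0.90, 0.16) and Trim25 (-0.29, 0.38) were not called. All 12 RNA-binding and translation genes were among the 35. Leaving out any 1 library left 34 to 37 members called. Leaving out day 1 PBS 5 and 6 left 38 (10.3% of all genes lower). The median was then -3.001, with -5.996 for Isg15 and -5.999 for Ifit3b. That fit kept day 1 lactate libraries 5 and 6, so its day 1 groups were unlike sets of libraries. When numbers 1 to 4 of both day 1 groups were fitted, 0 members changed sign relative to the main fit. With only numbers 5 and 6 at day 1 the median was -1.92 and 0 were called by limma (35 lower at an unadjusted p under 0.05). This test uses the same libraries as both lactate comparisons. In it 6 of 11 T and NK, 5 of 9 conventional dendritic and 3 of 8 monocyte markers were also called lower. Of the 81 markers tested 15 were lower and 4 higher, the latter including 3 of 8 macrophage markers. Their part in the result was not tested beyond the covariates.

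In order of group mean log2(FPKM + 1), day 1 lactate was highest for 25 members and day 0 for 12. Trim25 was highest in day 1 PBS (83.7 ± 8.71 FPKM, SD, n = 6), next to day 1 lactate (80.7 ± 17.2 FPKM, n = 6), and Samd9l in day 3 PBS (86.98 ± 29.2 FPKM, n = 4), next to day 1 lactate (86.4 ± 33.1 FPKM, n = 6), and neither pair differed by more than its spread. NC was lowest for 32 members, day 3 lactate for 4 and day 1 PBS for 2, while Ifi203 was lowest at day 0.
The members that were highest at day 0 included Ifitm3, with 2246 ± 329 FPKM at day 0 (SD, n = 5), 1384 ± 542 FPKM with lactate at day 1 (n = 6) and 678 ± 109 FPKM in NC (n = 3). Ifi27l2a had 971 ± 143 FPKM at day 0, 792 ± 144 FPKM with lactate at day 1 and 219.6 ± 42.6 FPKM in NC. Oas1a, Oas1g, Bst2 and Ifi204 also had their highest mean at day 0. Among those highest with lactate at day 1 were the Ifit genes: Ifit2 had 175 ± 149 FPKM there (n = 6), 101 ± 49.9 FPKM in day 3 PBS (n = 4), 50.8 ± 48.9 FPKM at day 0 (n = 5) and 12.1 ± 2.64 FPKM in NC (n = 3). The SD of Ifit2 with lactate exceeded its distance to day 3 PBS, so these 2 groups are not set apart by it.
Over all 28 libraries Ifitm3 had the highest median, 987 FPKM. Medians of the sensors ran from 6.82 FPKM (Ddx60) to 161 FPKM (Ifi204). Zbp1, which senses Z-form nucleic acid and can trigger necroptosis, had 202 ± 69.7 FPKM with lactate and 68.9 ± 81.4 FPKM with PBS at day 1 (n = 6 each). In the same groups Ifih1 had 44.5 ± 21.2 FPKM with lactate and 19.6 ± 21.6 FPKM with PBS, and Ddx60 13.8 ± 7.69 FPKM with lactate and 5.84 ± 4.42 FPKM with PBS. Dhx58 (LGP2), a regulator of the RNA helicases, had 78.3 ± 32.2 FPKM with lactate and 33.9 ± 26.4 FPKM with PBS, and Ifi205 109.7 ± 45.4 FPKM with lactate and 42.1 ± 61.8 FPKM with PBS.
Among modifiers, Usp18, which strips ISG15 from proteins and restrains the receptor, had 155 ± 90.9 FPKM with lactate and 53.5 ± 61.9 FPKM with PBS at day 1 (1.88 ± 0.48, limma adjusted p = 0.017). Herc6, the ISG15 ligase of mice, had 39.8 ± 20.9 FPKM with lactate and 15.2 ± 16.9 FPKM with PBS (1.62 ± 0.42, 0.019). Without PBS libraries 5 and 6 Usp18 had 2.70 and Herc6 2.25. The ADP-ribose transfer genes Parp9 (1.14), Parp14 (1.16) and Dtx3l (1.05), which adjoin each other on chromosome 16, had nearly the same log2 fold change with lactate at day 1. Eif2ak2 (PKR), which halts translation on double-stranded RNA, rose by 1.13, the exonuclease gene Isg20 by 1.74, and Cmpk2 by 1.97.
In the last group Rtp4, a chaperone-like protein, rose by 1.43 (2.19 without PBS libraries 5 and 6), Xaf1, a promoter of apoptosis, by 1.40, Samd9l by 1.41, Ifi35 by 1.18 and Sp100, a nuclear body protein, by 0.97 on the log2 scale. The remaining oligoadenylate synthetase Oas2 rose by 1.19 and Trim30a, a ubiquitin ligase of mice, by 1.30.

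In the gene ontology terms of the deposited table, 24 of the 39 members were annotated to defense response to virus (61.5%, against 204 of 19537 genes with terms, 1.04%) and 20 to response to virus (51.3%, against 0.343%). The list was drawn up as antiviral genes, so these shares describe its choice. With lactate at day 1 the median log2 fold change was 1.38 over the 16 members with an ISRE core match (0.45 to 2.60). It was 1.52 over the 14 with a window and no match (-0.072 to 2.62). Some matches lay after the start, and near-copies such as Ifit3 and Ifit3b were counted separately. A window without a match to these letters may still hold an ISRE. The part of the element in the lactate values was not tested. Ifit2 with 2.62 and Oasl1 with 1.95 had no match in their windows, and Ifitm3 with 0.45 had 2 after its start. At day 0 relative to NC the medians were 1.68 over the 16 and 1.48 over the 14.

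Of the genes that make, sense or pass on interferon, 48 were in the table and 33 were tested. With lactate at day 1, 14 of these rose and 2 fell relative to PBS, a count to be read against the 5.16% and 4.56% of all genes given above. Without PBS libraries 5 and 6, 21 rose and 1 fell (9.68% and 9.37% of all genes), and the values of that fit are given second. It kept lactate libraries 5 and 6, although numbers 5 and 6 stood apart in both day 1 groups. The second values therefore compare unlike sets of libraries. Values with numbers 5 and 6 left out of both groups are not given for these genes. Irf7, the factor that amplifies interferon production, rose by 2.09 ± 0.54 (limma adjusted p = 0.017) and 3.07, Stat2 by 1.40 ± 0.35 (0.016) and 1.89, and Irf9 by 0.55 ± 0.16 (0.027) and 0.83. Ifng, the type II interferon made by T and NK cells, rose by 1.86 ± 0.29 (limma adjusted p = 0.0045) and 1.96, with 10.8 ± 4.88 FPKM under lactate and 2.25 ± 1.69 FPKM under PBS (SD, n = 6 each), beside the rise of T and NK markers given above. Socs1, an inhibitor of the kinases, rose by 1.70 and 2.29, Rigi, an RNA sensor, by 1.25 and 1.81, and Jak2 by 0.79 and 1.01. Socs3 fell (-0.64 and -0.88). Ifngr1, a chain of the receptor of interferon gamma, fell with all libraries (-0.33) and was not called without PBS 5 and 6 (-0.29, limma adjusted p = 0.068). The receptor chains Ifnar1 (-0.16) and Ifnar2 (-0.14) were not called.

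Transcripts of type I interferon itself were scarce. Of 15 ligand genes in the table Ifng alone passed the filter on low values and was tested. Ifnb1, interferon beta, had 0, 0, 0, 4, 2 and 1 fragments in day 1 lactate libraries 1 to 6, against 1, 0, 1, 0, 21 and 9 fragments in day 1 PBS libraries 1 to 6. At day 3 it had 0, 1, 10 and 0 fragments in lactate libraries and 0, 7, 0 and 30 fragments in PBS libraries. Day 0 libraries had 6, 0, 1, 0 and 0 fragments and NC libraries 0, 0 and 4. The library with the most Ifnb1 fragments of its group was the one in which most members were highest in day 1 PBS (library 5) and day 3 lactate (library 3), and was another one in NC, day 0, day 1 lactate and day 3 PBS.

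At day 0 relative to NC 17 of the 33 pathway genes rose and 4 fell (19.7% and 41.4% of all genes), with Irf7 at 2.93 ± 0.68, the adaptor gene Myd88 at 1.86, the kinase gene Ikbke at 1.75, Rigi at 1.33, Stat2 at 1.15 and Irf9 at 0.74. Ifng (-0.88), Ifngr1 (-0.70), Jak2 (-0.64) and Tyk2 (-0.63) fell. At day 1 with PBS 8 were higher and 15 lower than at day 0 (43% and 19.8% of all genes), and 7 and 18 without libraries 5 and 6 (43.3% and 19.6%). At day 3 with PBS 12 were higher and 5 lower than at day 1 (21.5% and 12.8% of all genes), and 16 and 3 without libraries 5 and 6 (21% and 14.7%). Relative to NC, day 1 PBS had 2 higher (Ifnar2 and Socs3) and 0 lower by limma (7 higher and 2 lower at an unadjusted p under 0.05), against 5.29% and 9.18% of all genes. Without libraries 5 and 6, 2 were higher (Mavs and Socs3) and 2 lower (Jak2 and Irf5), against 6.27% and 8.73% of all genes. Day 3 PBS had 13 higher and 1 lower than NC (10.3% and 10.9% of all genes). With lactate at day 3 0 were called by limma relative to PBS (1 higher and 6 lower at an unadjusted p under 0.05), and the difference between the lactate effects was called lower for 12 and higher for 0 by limma (15 lower and 2 higher at an unadjusted p under 0.05), against 5.94% and 4.76% of all genes. Without day 1 PBS libraries 5 and 6 that difference was called lower for 16 and higher for 2, against 10.3% and 10.8% of all genes. Day 1 lactate libraries 5 and 6 were kept in that fit, so its day 1 groups were not balanced either.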

How the data were processed

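Libraries were grouped by the title in the labels, which also gives the library number. The measurements were FPKM values, which the authors deposited in 1 table, its header naming the unit. Besides fastp and R 3.2.0, named in the submitters' processing notes, how reads were aligned and counted and on which build is not given in the sources used here, so fragments of near-identical copies (Ifit3 and Ifit3b, Oas1a and Oas1g, Ifi203, Ifi204 and Ifi205) and of overlapping genes may have been divided between them. As FPKM are scaled by library, abundant RNA of one cell type lowers the values of other genes. Whole fragments were recovered from the FPKM steps (100% of values whole within 0.0001). Libraries of one group differed well beyond sampling noise (55 pairs, chi-square at least 28.5 times its degrees of freedom), and each was kept as 1 replicate.

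Tests were run on log2(FPKM + 1) of the deposited values, a scale that understates changes of low genes. Genes with at least 1 FPKM in at least 3 libraries were kept (11960). One limma 3.58.1 model (R 4.3.3) with a mean for each of the 6 groups shared the spread over all 28 libraries, with trend and robust moderation. P-values are two-sided and adjusted by Benjamini-Hochberg over all genes tested, with a threshold of 0.05, and errors of fold changes are SE. Shares of all genes called refer to adjusted p-values. No such share was drawn up for counts at an unadjusted p under 0.05. The script was tested on simulated data. The members, role groups, marker and pathway lists were chosen with earlier results of these data known. Library values are given for up to 4 called members with the largest change per comparison (mean of at least 5 FPKM in a group), for Isg15, Ifit1, Rsad2, Bst2 and Ifitm3, and for called members against the majority; the other genes with values were singled out after these were seen. Day 3 PBS against day 0 and the fits without libraries 5 and 6 were added after seeing the data. Promoter sequences came from RefSeq tables (GRCm38.p6) and were matched to the members by NCBI gene identifier. Gene ontology terms were those of the deposited table. Alternatives were other pseudocounts, filters and scalings, fewer groups, a replicate block, marker covariates and leaving out each library. Tables and figures were made with Python 3.11.15, numpy 2.4.6, pandas 2.3.3 and matplotlib 3.10.9. The listed name without an entry was not analysed here.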

Additional observations from a re-analysis of the deposited data

Results flagged for a closer look

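For 5 of 195 sets of one member in one group of 4 to 6 libraries, a single library lay farther from the others than Dixon's 95% limit, which chance exceeds in about 1 set in 20. Day 0 library 3 was the highest for Ifi204 (517 FPKM), Oas2 (98.1 FPKM) and Trim25 (63.2 FPKM), and that library was the highest of day 0 for 36 of the 39 members. Isg20 was high in day 1 PBS library 5 (31.0 FPKM) and Samd9l in day 3 lactate library 3 (67.6 FPKM). In these libraries nearly all other members were also the highest of the group, but within the limit.

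The lactate effect differed between day 3 and day 1 for 35 members by the test of the difference itself (limma, adjusted p under 0.05), always lower at day 3. As log2 differences, day 3 minus day 1, the sensors had Ifih1 -2.62, Dhx58 -2.46, Ddx60 -2.14, Zbp1 -3.09, Ifi203 -2.12 and Ifi205 -3.12. The RNA-binding, cleaving and translation genes had Ifit1 -4.32, Ifit2 -4.48, Ifit3 -4.73, Ifit3b -4.84, Oas1a -2.08, Oas1g -2.29, Oas2 -2.47, Oas3 -3.68, Oasl1 -3.64, Oasl2 -2.79, Eif2ak2 -2.07 and Isg20 -2.75. The membrane and nucleotide effectors had Bst2 -2.03, Rsad2 -4.54 and Cmpk2 -3.58. The ISG15, ubiquitin and ADP-ribose genes had Isg15 -4.87, Usp18 -3.82, Herc6 -2.98, Trim30a -2.37, Dtx3l -1.62, Parp9 -1.95 and Parp14 -1.76. The others had Ifi44 -3.33, Ifi35 -2.22, Ifi27l2a -2.23, Rtp4 -2.91, Xaf1 -2.91, Samd9l -2.28 and Sp100 -1.65. At day 1, 38 of the 39 members had a higher mean with lactate and at day 3 all 39 had a lower one. Day 1 PBS libraries 5 and 6 entered each of these values.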

How the results depend on the processing

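Pseudocounts of 0.1 and 5, a filter of 5 FPKM and quantile normalization left each count of called members within 1.5 times its value, and of 7878 gene values over all alternatives 6410 kept direction and side of the threshold, 835 lost their call, 322 gained one, 66 that were called in either fit changed sign and 245 that were called in neither changed sign. Median-ratio scaling gave 5 called for day 3 PBS over day 1 PBS and 14 for day 3 PBS over NC; no filter gave 8, 13 and 19 for these and lactate over PBS at day 1. Both scalings moved the all-gene median of day 0 against NC, -0.22, to 0.04 or 0.06, with 34.1% or 29.7% of genes higher and 29.3% or 23.0% lower in place of 19.7% and 41.4%. With only the groups compared in the fit 3 were called for day 3 PBS over day 1 PBS, 1 for day 1 PBS over NC, 0 (37 at an unadjusted p under 0.05, limma) for lactate over PBS at day 1, 0 (33) for lactate over PBS at day 3 and 16 for day 3 PBS over day 0. The cause was not tested.

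Leaving out each library in turn gave counts of 20 to 25 for day 0 over NC, 17 to 35 for day 1 PBS over day 0, 3 to 34 for day 3 PBS over day 1 PBS, 1 to 2 for day 1 PBS over NC, 3 to 30 for day 3 PBS over NC, 2 to 37 for lactate over PBS at day 1, 0 to 3 for lactate over PBS at day 3, 34 to 37 for the difference between the lactate effects and 4 to 8 for day 3 PBS over day 0. Leaving out day 1 PBS libraries 5 and 6, chosen after seeing the data, gave 38 for day 1 PBS over day 0 and 1 for day 1 PBS over NC. With only numbers 5 and 6 at day 1, 0 were called for lactate over PBS at day 1 (limma, 3 at an unadjusted p under 0.05) and 0 for the difference between the lactate effects (35).

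The replicate numbers of the labels were not treated as pairs. Same-numbered libraries correlated at -0.34 to 0.61 at day 1 (median 0.40, 6 pairs) and -0.53 to 0.26 at day 3 (median -0.14, 4 pairs). Not every library correlated best with its own number. So few correlations cannot decide whether the libraries were paired. With the replicate number as a block 3 members were called for lactate over PBS at day 3, 13 for day 3 PBS over day 0, 23 for day 0 over NC, 30 for day 1 PBS over day 0, 33 for day 3 PBS over day 1 PBS, 2 for day 1 PBS over NC, 35 for day 3 PBS over NC, 37 for lactate over PBS at day 1 and 37 for the difference between the lactate effects. Shares of all genes called are not given for the block fit or for fits with 1 library left out. Their counts therefore do not show whether the members moved more than other genes did.

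Covariates for the content of other cells also moved the counts. The acinar covariate gave 0 (limma, 1 higher and 3 lower at an unadjusted p under 0.05) for day 0 over NC, 3 for day 1 PBS over day 0, 36 for day 3 PBS over day 1 PBS, 1 for day 1 PBS over NC, 36 for lactate over PBS at day 3 and 29 for day 3 PBS over day 0. The lymphocyte covariate gave 1, 1, 5 and 2 for day 0 over NC, day 1 PBS over day 0, day 1 PBS over NC and lactate over PBS at day 3. For the last of these 1.45% of all genes were higher and 1.42% lower. The dendritic covariate gave 0 (limma, 0 also at an unadjusted p under 0.05) for day 0 over NC, 1 for day 1 PBS over day 0, 0 (34 unadjusted) for day 3 PBS over day 1 PBS, 1 for day 1 PBS over NC, 0 (38 unadjusted) for lactate over PBS at day 1, 8 for lactate over PBS at day 3 and 0 (3 unadjusted) for day 3 PBS over day 0. For lactate over PBS at day 3 this covariate left 6.76% of all genes higher and 0.886% lower.

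Of the 245 sign changes without a call in either fit 155 came with these covariates, 30 with a library left out, and 32 with libraries 5 and 6 left out or alone, of which 29 were in day 1 PBS over NC. The 66 with a call in either fit all came with these covariates. For day 0 over NC they were, with the acinar one, Zbp1 -0.48, Ifi204 -0.41, Ifi205 -1.04, Ifit1 -1.15, Oas1g -0.041, Oas2 -0.55, Oas3 -0.27, Oasl1 -0.042, Oasl2 -0.47, Eif2ak2 -0.43, Isg15 -0.17, Usp18 -0.54, Trim30a -0.10, Ifi44 -0.68, Rtp4 -0.19, Xaf1 -0.37 and Sp100 -0.091; with the lymphocyte one, Ifit1 -0.10; with the dendritic one, Ifi204 -1.23, Ifit1 -0.10, Oas2 -0.044, Oasl2 -0.11, Eif2ak2 -0.071, Ifitm3 -0.91, Rtp4 -0.014 and Lgals3bp -0.081. For day 1 PBS over day 0 they were Ifi204 0.52, Oas2 0.23, Oasl2 0.067, Eif2ak2 0.36, Bst2 0.47, Ifitm3 0.34, Usp18 0.47, Trim30a 0.043, Xaf1 0.31, Lgals3bp 0.69 and Sp100 0.16 with the lymphocyte and Ifi204 0.85, Oasl2 0.090, Eif2ak2 0.094, Bst2 0.10, Ifitm3 0.75 and Lgals3bp 0.40 with the dendritic covariate. For day 3 PBS over day 1 PBS it was Trim25 0.066 with the dendritic covariate. For day 3 PBS over day 0 they were Dhx58 1.17, Zbp1 2.25, Ifi204 0.92, Oas1a 0.63, Oas2 1.32, Oas3 2.35, Oasl2 1.64, Bst2 0.26, Isg15 2.35, Trim30a 1.32, Ifi27l2a 0.17 and Rtp4 1.43 with the acinar, Ifi204 1.80, Oas1a 1.05, Bst2 1.52, Ifitm3 0.77 and Ifi27l2a 0.11 with the lymphocyte and Ifi204 3.15, Oas1a 1.45, Bst2 1.46, Ifitm3 2.08 and Ifi27l2a 0.47 with the dendritic covariate. Marker content and group overlap little or not at all in these comparisons, and the part of either cannot be told apart.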
